A study of Mus musculus with 7 samples.

Results

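The genes described here are Bdnf, its family member Ntf3, the receptors Ntrk2, Ntrk3, Ngfr and Sort1, the transcription factor Creb1, and Vgf and Nptx2, which neurotrophins or neuronal activity induce. They were chosen by name, as genes often linked to dietary docosahexaenoic acid (DHA), and each probe that the platform annotation assigns to them was read apart. The annotation gave 23 such probes for 8 of the 9 genes, out of 25697 probes on the array. No probe carried the name of Ntf3, which is not analysed here.

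RNA came from the hypothalamus, which controls appetite and the pituitary, of male C57BL/6 mice aged 13 weeks. Every mouse carried the knockout of Bgn, the gene for the matrix proteoglycan biglycan, and no array from a mouse without the knockout is analysed here. The untreated group held 2 Illumina bead arrays, replicates 1 and 3, from mice on a rodent diet without the added oils; the series text counts 3 such mice and states that 1 was excluded as an outlier. The DHA group held 5 arrays, replicates 1 to 5, from mice given a diet with 0.5% flaxseed oil and 1.2% oil from DHA capsules for about 6 weeks, so that DHA, flaxseed oil and added oil cannot be told apart. How Bgn was inactivated, and in which cells, was not examined. Of 18 measured marker genes of hypothalamic neurons, 12 were detected in all arrays, while Lhx9, Hmx3, Otp and Sim1 were detected in none.

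Neurotrophins are secreted growth factors made as precursors. Mature Bdnf binds the receptor tyrosine kinase TrkB, the product of Ntrk2, while Ntf3 prefers TrkC, the product of Ntrk3; both kinases signal through Ras, phosphoinositide 3-kinase and phospholipase C. All neurotrophins also bind p75, the product of Ngfr, which with sortilin, the product of Sort1, forms the receptor for the uncleaved precursors. In the hypothalamus, Bdnf and TrkB act downstream of melanocortin signalling to restrain food intake, and Vgf is cleaved into peptides that affect energy balance.

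Creb1 is the textbook activator of Bdnf in active neurons, so the gene's start sites were searched for the CRE, the site that Creb1 binds. The promoter set used here (GRCm38.p6) holds 7 starts for Bdnf on chromosome 2. It covers 5 of the 9 genes, Bdnf, Creb1, Ntf3, Ngfr and Ntrk2, with 12 promoters in all. Each promoter runs from 250 bases before the start to 50 bases after it. Only exact matches within this stretch were sought, so sites farther away were not searched. Ntrk3, Sort1, Vgf and Nptx2 have no promoter in this set and were not searched. The full CRE, TGACGTCA, was in 0 of the 12 and in 1.79% of all 32851 promoters of the same length. Its shorter core, TGACG on either strand, was in 1 of the 12, against 20.8% of all promoters. That promoter belongs to the third Bdnf start, at chr2:109692186-109692485 on the plus strand. It is shown, with the core in capitals, because it is the only promoter among the 12 with this core, whose first base lies at position -35 relative to the start. The core is read on the reverse strand, as CGTCA. The annotation does not say which start the array's probes report.

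Bdnf, start 3: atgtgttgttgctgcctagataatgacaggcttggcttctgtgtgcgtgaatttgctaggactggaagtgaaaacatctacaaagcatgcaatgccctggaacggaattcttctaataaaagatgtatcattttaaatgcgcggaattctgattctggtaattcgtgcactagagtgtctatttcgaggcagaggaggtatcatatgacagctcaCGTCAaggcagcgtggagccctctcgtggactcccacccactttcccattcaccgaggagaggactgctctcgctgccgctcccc

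Signals are given as normalized log2 intensities, with differences as DHA minus untreated on the same scale, and signals of different probes are not set against each other. A probe counted as detected in an array where its detection p-value, its comparison with the negative controls of that array, was under 0.05. Of the 23 probes, 17 were detected in at least 2 arrays and were tested, 15 of them being detected in all 7 arrays. The other 6, 1 of Bdnf and 5 of Creb1, were not well above background in any array. The probes for Snap25 and Nefl, abundant neuronal transcripts, were also undetected on all arrays, so an undetected probe does not show that its gene was silent.

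No gene of the set passed the test for a difference between the diets. In limma, 0 of the 17 probes passed an adjusted p under 0.05, where 0 of all 15284 tested probes passed (0%). At an unadjusted p under 0.05 there was 1 of 17, the Vgf probe, which was higher with DHA, against 10.2% of all probes (5.17% higher and 5.07% lower). The smallest adjusted p among the 17 was 0.482. With DHA, 10 of the 17 had a higher mean and 7 a lower mean, against 47% and 53% of all probes. The median difference of the 17 was 0.11, against -0.01 for all tested probes. Every DHA array lay above both untreated arrays for 2 of the 17 probes, against 7.89% of all probes, and below both for 1, against 9.06%. The 95% intervals of the differences, not adjusted for the number of probes, reached from 0.22 log2 to 1.24 log2 on either side of the estimate. A difference larger than this reach can still fail the adjusted test, as that of the Vgf probe did. In tissue RNA, fewer cells of a type and less RNA per cell cannot be told apart.

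**Figure D1:**
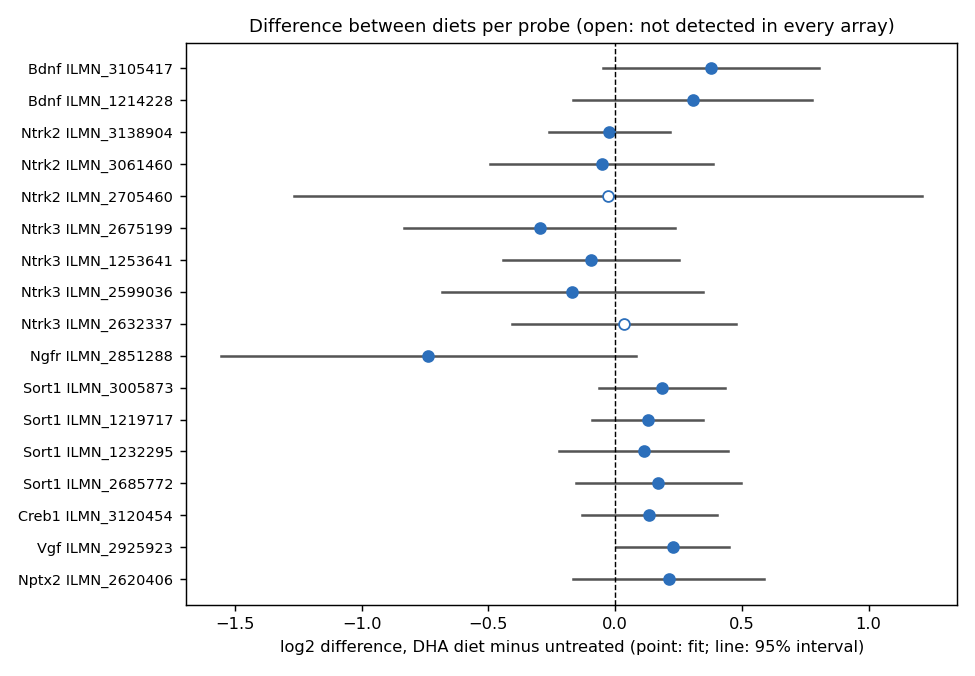
The log2 difference between the DHA diet and the untreated group (x axis) for each of the 17 tested probes (y axis), with its 95% interval from limma; open points mark the 2 probes not detected in every array. All intervals include 0 except that of Vgf, whose lower end is at 0.0033, and the intervals are widest for Ngfr and for the dim Ntrk2 probe.

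The ligand Bdnf was expressed in every array. On its brighter probe (ILMN_3105417) untreated replicate 1 read 8.16 and untreated replicate 3 read 8.81, while DHA replicates 1 to 5 read 8.98, 8.76, 9.06, 8.67 and 8.86 in that order, as in all such lists here. Untreated replicate 1 was the lowest array, and untreated replicate 3 lay inside the DHA range, so the groups overlapped. The difference was 0.38 (SE 0.18), a fold of 1.3 with a 95% interval of 0.969 to 1.75, and the limma adjusted p was 0.526.

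The second Bdnf probe (ILMN_1214228) had the same pattern at a dimmer signal. It read 5.91 and 6.54 in the untreated arrays, and 6.73, 6.27, 6.80, 6.48 and 6.39 in the DHA arrays, a difference of 0.31 (SE 0.20, limma adjusted p 0.631). Across the 7 arrays Pearson's r between these probes was 0.92. Both differences depended on which untreated array was kept. Leaving out an untreated array leaves 1 untreated sample, so that here and below the SE and p of such a fit rest on the spread of the 5 DHA arrays, and the lone sample is assumed to vary like them. Without untreated replicate 1 they were 0.05 (SE 0.17) and -0.01, and without untreated replicate 3 they were 0.71 (SE 0.17) and 0.62. The third Bdnf probe (ILMN_1246842) was not well above background in any array.

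**Figure D2:**
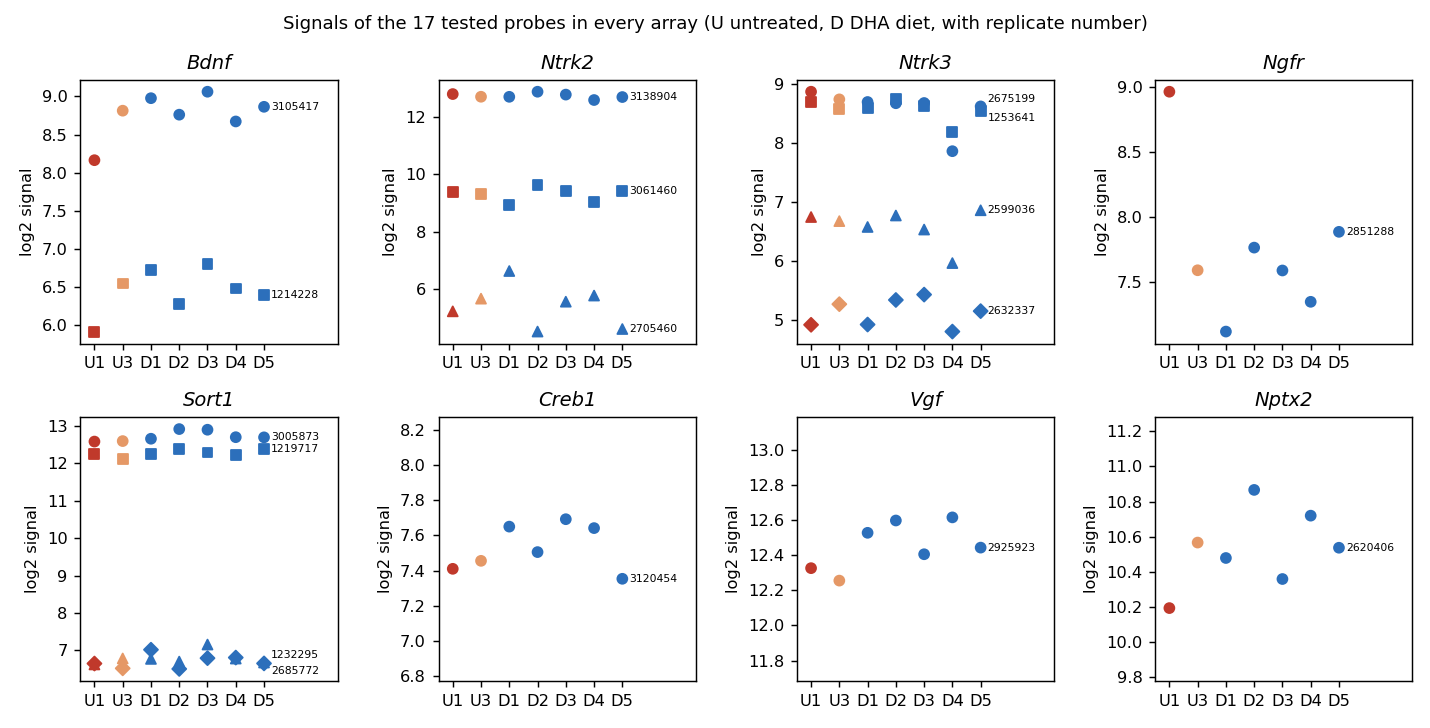
Normalized log2 signal (y axis, its own range in each panel) of the 17 tested probes of 8 genes in each array (x axis; U1 and U3 are the untreated replicates 1 and 3, D1 to D5 the DHA replicates). Each point is 1 array and each marker shape 1 probe, with the digits of its name at the right. Untreated replicate 1 has the lowest Bdnf signals and the highest Ngfr signal, and DHA replicate 4 has the lowest signal on each of the 4 Ntrk3 probes.

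The probes of the Bdnf receptor gene Ntrk2 differed in how much they varied between arrays. The brightest probe (ILMN_3138904) read 12.78 and 12.69 in the untreated arrays, and 12.69, 12.86, 12.76, 12.57 and 12.68 in the DHA arrays. The groups overlapped, and the difference was -0.02 (SE 0.10, limma adjusted p 0.957), with a 95% interval of -0.26 to 0.22. The probe ILMN_3061460 read 9.39 and 9.30 in the untreated arrays against 8.94 to 9.64 in the DHA arrays, and differed by -0.05 (SE 0.19, limma adjusted p 0.94). For these probes, a change of more than 1.31-fold upward lies outside both 95% intervals.

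The dim Ntrk2 probe (ILMN_2705460), which the annotation assigns to a different transcript record from the other probes, varied most of the 17. It read 5.24 and 5.68 in the untreated arrays and 6.64, 4.53, 5.57, 5.78 and 4.62 in the DHA arrays, and was not detected in the DHA replicates 2 and 5. The spread within the DHA group (SD 0.87, n = 5) was far above the difference of -0.03 (SE 0.54, limma adjusted p 0.988). Ntrk2 encodes a full-length kinase and forms that lack the kinase domain, and which of them each probe reports was not examined.

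For Ntrk3, the gene of the Ntf3 receptor, the brightest probe (ILMN_2675199) read 8.86 and 8.73 in the untreated arrays, and 8.69, 8.67, 8.67, 7.86 and 8.62 in the DHA arrays. All 5 DHA arrays were below both untreated arrays, and DHA replicate 4 lay far below the other 4. The difference was -0.30 (SE 0.23, limma adjusted p 0.686), and without DHA replicate 4 it was -0.14. That array was also the lowest on the probe ILMN_1253641, at 8.18 against 8.54 to 8.74 in the other 6 arrays, and on ILMN_2599036, at 5.97 against 6.53 to 6.86. These probes differed by -0.09 (SE 0.15) and -0.17 (SE 0.22). Without DHA replicate 4 their differences were -0.01 and -0.03. The dimmest Ntrk3 probe (ILMN_2632337), detected in 1 untreated array and 3 DHA arrays, differed by 0.04 (SE 0.19).

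Ngfr, the gene of p75, had the largest difference of the set, and its size depended on which untreated array was kept. Its probe (ILMN_2851288) read 8.97 in untreated replicate 1 and 7.59 in untreated replicate 3, against 7.12, 7.76, 7.59, 7.35 and 7.89 in the DHA arrays. Untreated replicate 1 stood above all other arrays, while untreated replicate 3 lay within the DHA range. The difference was -0.74 (SE 0.35), a fold of 0.6 with a 95% interval of 0.34 to 1.06, and the limma adjusted p was 0.526. Without untreated replicate 1 the difference was -0.05 (SE 0.28), and without untreated replicate 3 it was -1.42 (SE 0.28, limma adjusted p 0.457).

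In the brain p75 is best known from cholinergic neurons of the basal forebrain, so the genes of these cells were read on the same arrays, in a list chosen after the Ngfr values were seen. Choline acetyltransferase, Chat, read 7.90 and 5.73 in the untreated arrays and 4.90 to 6.67 with DHA. The acetylcholine transporter of synaptic vesicles, Slc18a3, read 6.97 and 4.56 in the untreated arrays against 4.72 to 5.59 with DHA. The choline transporter Slc5a7 read 7.28 and 5.63 against 4.61 to 6.34, and Lhx8, a transcription factor of forebrain cholinergic neurons, 8.21 and 4.87 against 4.76 to 6.36. For each of these 4 genes untreated replicate 1 was the highest array. They were detected in 4 to 6 of the 7 arrays, so several of the low values are near background. The other measurable genes of the list were less uniform. Untreated replicate 1 was also the highest array for Isl1, at 11.30 against 10.88 to 11.19 in the others, and for Tacr1, at 7.58 against 6.94 to 7.51. It was not the highest for the acetylcholine-degrading enzyme Ache, at 10.11 where DHA arrays reached 10.46, for Slc10a4, at 8.67 where they reached 9.13, or for Zic4, at 7.497 where they reached 7.599.

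Of the 10 genes on the cholinergic list, 5 were detected in all arrays and Gbx1 in none. Isl1 is also a gene of hypothalamic neurons. The list's summed normalized signal came to 5244 and 4329 without the diet and to 3839 to 4402 with it. The striatal list, with 12 of 12 measured genes detected in all arrays, summed to 15141 and 9452 in the untreated arrays and to 8574 to 9347 with DHA. The summed hypothalamic list, 88023 and 96306 in the untreated arrays and 88022 to 94543 with DHA, overlapped between the groups. The cortex and hippocampus list, with 7 of 11 genes detected in all arrays, summed to 4080 and 2868 in the untreated arrays. With DHA it summed to 2837 to 6021, and it was highest in DHA replicates 2 and 5. The thalamic list, with 6 of 9 genes detected in all arrays, summed to 16602 and 15305 against 14454 to 18504 with DHA. Most of this sum was its brightest gene, Slc17a6, at 13.71 and 13.66 against 13.61 to 13.82. Gbx2 of the same list varied more, at 8.92 and 8.29 against 7.20 to 9.41. The mean log2 signal of the thalamic list was 8.19 and 7.82 against 7.56 to 8.32. The part of cholinergic, striatal, cortical or thalamic RNA in the values of Ngfr, Bdnf and the other members was not tested.

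**Figure D3:**
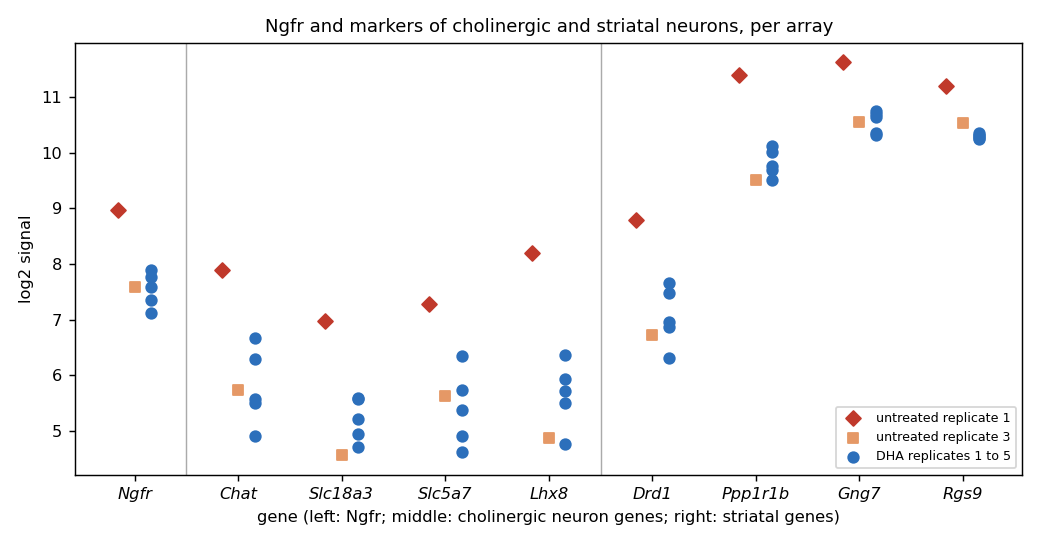
Normalized log2 signal (y axis) of Ngfr, 4 genes of cholinergic neurons and 4 genes of striatal neurons (x axis), with 1 point per array. Untreated replicate 1 (diamond) lies above the other 6 arrays for each of the 9 genes shown. Untreated replicate 3 (square) lies within or below the DHA range for all but Rgs9. The marker genes shown are picked from their lists. On the same lists a DHA array exceeds untreated replicate 1 for Ache, Slc10a4 and Zic4. The same holds for the striatal genes Foxp1 (7.56 against 7.69 in DHA replicate 3) and Gpr6 (6.32 against 6.37 in DHA replicate 1).

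Sort1, whose product sorts Bdnf into secretory vesicles and binds its precursor, had small positive differences on all 4 probes. Its brightest probe (ILMN_3005873) read 12.58 and 12.60 in the untreated arrays, and 12.66, 12.92, 12.90, 12.70 and 12.70 in the DHA arrays. Every DHA array was above both untreated arrays, with DHA replicate 1 closest to them. The difference was 0.18 (SE 0.11, limma adjusted p 0.581), a fold of 1.14 with a 95% interval of 0.957 to 1.35.

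The groups overlapped on the other Sort1 probes. The probe ILMN_1219717 read 12.24 and 12.12 in the untreated arrays against 12.23 to 12.39 with DHA, and differed by 0.13 (SE 0.09). The dimmer probes ILMN_2685772 and ILMN_1232295 differed by 0.17 (SE 0.14) and 0.11 (SE 0.14), with limma adjusted p values of 0.708 and 0.811. The pairwise r of the 4 probes over the 7 arrays ran from -0.11 to 0.62, so they did not rank the arrays alike.

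Creb1, the activator that many Bdnf signals reach, was measurable on 1 of its 6 probes. That probe (ILMN_3120454) read 7.41 and 7.46 in the untreated arrays, and 7.65, 7.51, 7.69, 7.64 and 7.35 in the DHA arrays. The other 4 DHA arrays were above both untreated arrays and DHA replicate 5 was below both. The difference was 0.14 (SE 0.11, limma adjusted p 0.713), with a 95% interval of -0.13 to 0.40.

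Vgf, the neurotrophin-induced neuropeptide precursor, came nearest to a difference. Its probe (ILMN_2925923) read 12.33 and 12.26 in the untreated arrays, and 12.53, 12.60, 12.41, 12.61 and 12.44 in the DHA arrays. All 5 DHA arrays were above both untreated arrays. The difference was 0.23 (SE 0.10), a fold of 1.17 with a 95% interval of 1.002 to 1.37, and it did not pass after adjustment (limma unadjusted p 0.0474, adjusted p 0.482). It lay between 0.19 and 0.26 with any 1 array left out.

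For Vgf and Sort1, the probes on which all DHA arrays were above, the meningeal and astrocyte lists also had a higher mean log2 signal in every DHA array. The meninges and fibroblast list summed to 16342 and 8196 without the diet and to 23070 to 36503 with it; 9 of its 16 genes were detected in all arrays, and Col1a2 and Col3a1 in none. Its brightest genes, the growth factor Igf2, the prostaglandin synthase Ptgds and the matrix protein Mgp, differed by 1.55, 1.09 and 1.497. The astrocyte list, with 10 of 10 genes detected in all arrays, had a mean log2 signal of 9.74 and 9.83 against 9.85 to 9.995 with DHA, and its sums overlapped between the groups. The endothelial and mural list, with 9 of 11 genes detected in all arrays, summed to 9716 and 6581 against 10891 to 15335, but its mean log2 signal overlapped, at 8.12 and 7.56 against 8.11 to 8.43. The oligodendrocyte list, at 9.87 and 9.75 against 9.69 to 9.95, and the microglia list, at 8.11 and 8.03 against 7.98 to 8.18, overlapped too. The pan-neuronal list overlapped, at 10.33 and 10.23 in the untreated arrays and 10.20 to 10.33 with DHA. The part of these cells in the Vgf and Sort1 values was not tested.

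Nptx2, a secreted pentraxin that gathers glutamate receptors at excitatory synapses, read 10.19 and 10.57 in the untreated arrays on its probe ILMN_2620406, and 10.48, 10.87, 10.36, 10.72 and 10.54 in the DHA arrays. Untreated replicate 1 was again the lowest array, and untreated replicate 3 lay within the DHA range. The difference was 0.21 (SE 0.16, limma adjusted p 0.686). It was 0.03 without untreated replicate 1 and 0.40 without untreated replicate 3. The related genes Nptx1 and Nptxr, read on their brightest probes, differed by 0.08 (SE 0.20) and 0.33 (SE 0.21).

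**Figure D4:**
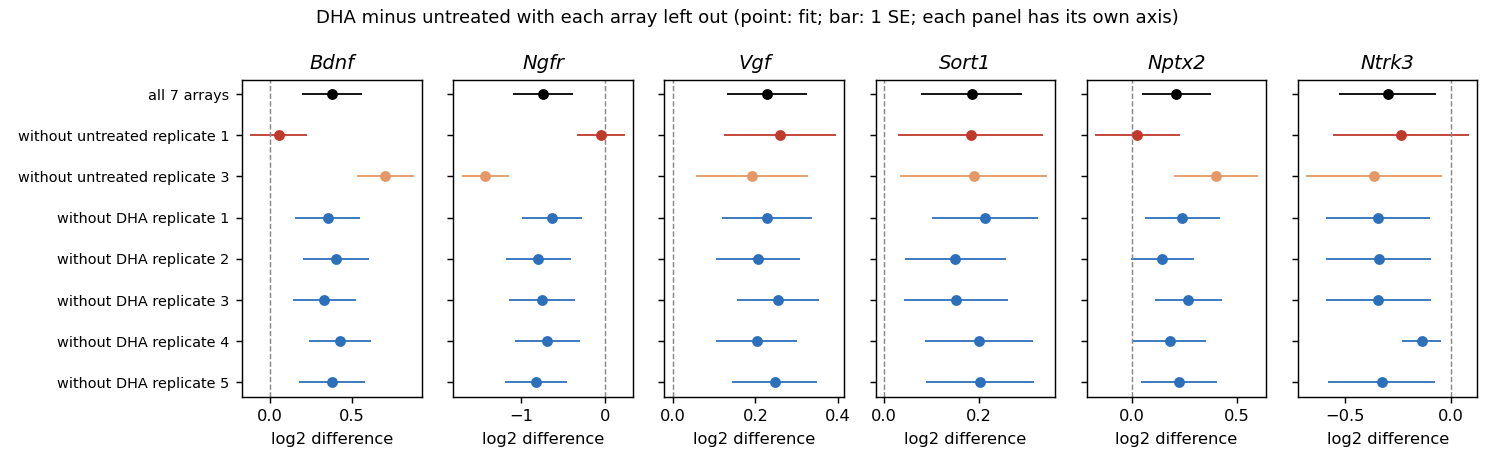
The log2 difference (x axis, DHA minus untreated, with its own range in each panel) of the brightest probe of 6 genes, fitted with all 7 arrays and with each array left out in turn (y axis); bars are 1 SE, which rests on the DHA arrays alone where an untreated array is left out. The Bdnf, Ngfr and Nptx2 values move to near 0 without untreated replicate 1, the Ntrk3 value shrinks to -0.14 without DHA replicate 4, and those of Vgf and Sort1 stay between 0.15 and 0.26.

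The genes whose signals followed the brightest Bdnf probe most closely over the 7 arrays were Samd4 (Pearson's r 0.98, Spearman's rho 0.86), the transcription factor Hey2 (0.98 and 0.96), Dcaf17 (0.97 and 0.93), the sphingomyelin synthase Sgms1 (0.96 and 0.86) and the scaffold gene Mpp6 (0.96 and 0.86), out of 8618 candidate genes. The most opposite were Rccd1 (-0.97 and -0.89), Enoph1 (-0.96 and -0.86) and Ndufa5 (-0.96 and -0.89). Without untreated replicate 1 and DHA replicate 3, the arrays farthest from the Bdnf median, Hey2 kept an r of 0.94, and the other 4 positive values lay between 0.72 and 0.88. Between Bdnf and Ngfr r was -0.83 over 7 arrays and -0.13 without untreated replicate 1. These values describe 7 arrays that share the spread of untreated replicate 1, and they were chosen as extremes.

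The other genes of the pathway were read from 7 lists, each gene on its brightest tested probe. Of 116 tested genes, 0 passed an adjusted p under 0.05. At an unadjusted p under 0.05 there were 6 higher and 2 lower, or 6.9% of the 116, against 9.87% of all 10448 named genes with a tested probe. With DHA 72 had a higher mean and 44 a lower mean, against 5038 and 5410 of all genes, and the median difference was 0.05 against -0.01 for all genes.

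Among the receptors and ligands outside the set, the sorting receptor genes Sorl1 and Sorcs3 differed by 0.27 (SE 0.15) and 0.10 (SE 0.11), and Sorcs1 and the p75-like Nradd by -0.18 (SE 0.12) and -0.10 (SE 0.23). The Ntf5 probe was detected in 1 untreated array and in no DHA array. Of 9 tested genes for precursor processing and transport, 2 reached the unadjusted threshold. Dctn1, of the dynein cofactor dynactin, read 7.57 and 7.30 against 7.72 to 8.57 with DHA and differed by 0.67 (SE 0.24, limma adjusted p 0.417). The axonal motor gene Kif1a differed by 0.35 (SE 0.13, limma adjusted p 0.429). The convertase Pcsk7 and the secretion factor Cadps2 differed by -0.15 (SE 0.10) and -0.09 (SE 0.09).

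Of 29 tested adaptors and kinases downstream of Trk receptors, 2 were higher and 2 lower at the unadjusted threshold. Shc1, the widely expressed adaptor that links receptors to Ras, read 9.86 and 9.73 against 10.03 to 10.34 with DHA and differed by 0.39 (SE 0.11). Its other tested probe, detected in 2 DHA arrays and no untreated array, differed by 0.12 (SE 0.20). Its neuronal relative Shc3 read 5.72 and 5.83 against 5.04 to 5.46 and differed by -0.46 (SE 0.13); it was not detected in DHA replicate 1, and its difference was -0.12 on the authors' normalized table. The limma adjusted p values of the brightest Shc1 probe and of Shc3 were 0.333 and 0.33. The kinase Rps6ka3, which can phosphorylate Creb1, differed by 0.32 (SE 0.12), or 0.091 on the authors' normalized table, and the kinase Map2k2 by -0.24 (SE 0.09). Of 11 tested p75 effectors, 0 reached it. Mapk9, a stress kinase, and the adaptor Traf6 differed by 0.12 (SE 0.09) and 0.11 (SE 0.12), and the kinase Irak1 and the p75-binding Bex3 by -0.26 (SE 0.16) and -0.10 (SE 0.09).

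In the Creb1 family and its coactivators, 1 of 21 tested genes reached the unadjusted threshold. Crem, which encodes activators and repressors at the same sites, differed by 0.53 (SE 0.19, limma adjusted p 0.426), with DHA replicate 4 inside the untreated range. Its other tested probes differed by 0.13 and 0.14. The related factor Atf2 differed by 0.19 (SE 0.09) on its brightest probe and by -0.01 on the next. Its dimmest tested probe, detected in 3 DHA arrays and no untreated array, differed by 0.40 (SE 0.25). The coactivator Crtc2 differed by -0.39 (SE 0.20) and the calcium-dependent kinase Camk2b by -0.07 (SE 0.12).

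None of the 15 tested regulators of Bdnf transcription reached the unadjusted threshold (0 of 15). The deacetylases Hdac2 and Sirt1 differed by 0.22 (SE 0.10) and 0.19 (SE 0.11), and the coactivator Ppargc1a by -0.34 (SE 0.19). Mef2a, an activity-dependent factor, differed by -0.35 (SE 0.17) on its brightest probe and by 0.29 on another. Of 25 activity-regulated transcripts, 1 reached it, Nrn1, which encodes the surface protein neuritin and differed by 0.31 (SE 0.11, limma adjusted p 0.407). Cbln4, a synapse organizer, differed by 0.26 (SE 0.13), the tachykinin precursor Tac1 by -0.19 (SE 0.10) and the clock gene Per1 by -0.26 (SE 0.15). The immediate early genes Arc and Fos, named for their textbook link to Bdnf after their values were seen, differed by -0.08 (SE 0.25) and -0.14 (SE 0.22).

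**Figure D5:**
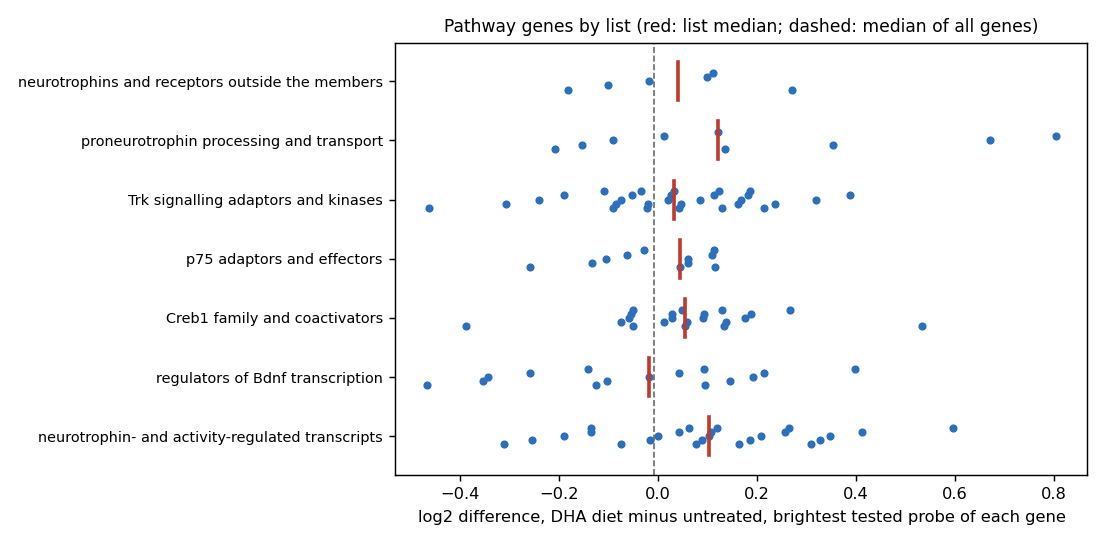
The log2 difference between the DHA diet and the untreated group (x axis) for the brightest tested probe of each gene in 7 pathway lists (y axis); each point is 1 gene, red bars are list medians and the dashed line is the median of all genes at -0.01. List medians lie between -0.02 and 0.12, and no gene passed the adjusted threshold.

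All DHA arrays lay above both untreated arrays in the number of detected probes and in median signal. The untreated arrays had 13873 and 13970 detected probes and the DHA arrays 14251 to 14534, and the median unnormalized signal was 167.4 and 173.2 against 174.5 to 189.5; the part of this in the results was not tested. Pearson's r between arrays over the tested probes was 0.984 to 0.991. The Bgn probe (ILMN_2964042) was detected in all 7 arrays, at 8.70 and 8.39 untreated and 8.02 to 8.30 with DHA. Its position relative to the deletion was not examined, so it does not check the genotype.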

How the data were processed

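Hypothalamus RNA was hybridised to 7 Illumina bead arrays. The authors deposited an unnormalized table with a linear signal intensity and a detection p-value per probe and array, per the file headers; its lowest intensities lay between 117.1 and 123.6, so background had not been subtracted. They also deposited normalized intensities, used as an alternative. Lumi 2.10.0 and R 2.15.0 are named in the submitters' processing notes, without the normalization chosen. A further 2 per-sample columns match no sample and were not used.

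Normexp on the detection p-values (offset 16), log2 and quantile normalization were applied with limma 3.58.1 in R 4.3.3; the offset shrinks differences of dim probes. Probes detected in 2 or more arrays (p under 0.05) entered lmFit and eBayes, and the two-sided p-values were adjusted by Benjamini-Hochberg over all 15284 of them. The script was tested on simulated data. Of 25697 probes, 23978 had 1 gene symbol, 1719 had none and 0 had several; 23962 matched the mouse gene table of GRCm38.p6, used to update symbols. The files name no genome build. Each gene is named by its brightest probe unless stated.

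The members, lists and tests were chosen with earlier results of these data known. Named genes are the members, up to 2 genes per pathway list and direction by smallest p, Bgn, 5 genes most like Bdnf and 3 least like it over the 7 arrays, and up to 3 genes of each marker list that did not overlap. The series text counts mice per group, but no label ties each array to 1 mouse or pairs replicate numbers, so p-values measure only the spread between these samples.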

Additional observations from a re-analysis of the deposited data

Results flagged for a closer look

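The check covered 46 of the probes named in the text, and the same 46 are the named probes of the next section. They are the tested member probes, those picked by smallest p from the pathway lists, and that of Bgn. Marker genes, the genes most and least like Bdnf and other probes named in the text were not checked. Of the 46, 5 had a DHA array far from the other 4, by the gap to its neighbour relative to the range of the group. By chance about 1 in 20 groups would be flagged. DHA replicate 4 was low for Ntrk3 (ILMN_2675199), at 7.86 against 8.62 to 8.69 in the other DHA arrays. It was also low for Crem (ILMN_1242622), at 6.68 against 7.23 to 7.44, and for Bgn (ILMN_2964042), at 8.02 against 8.23 to 8.30. DHA replicate 3 was high for Sort1 (ILMN_1232295), at 7.16 against 6.68 to 6.78. DHA replicate 5 was high for Hdac2 (ILMN_2640441), at 11.81 against 11.59 to 11.64.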

How the results depend on the processing

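The 46 named probes gave 729 values under 9 other settings and with each of the 7 arrays left out, and 0 of them passed an adjusted p under 0.05; the smallest among the members was 0.232, for Vgf with an intensity trend and robust variances. No member or pathway probe was called under any of these settings (0 in each). Over all probes, 12 passed on the authors' normalized table, 12 without background correction, 1 with normexp at an offset of 50 and 52 under a trended, robust fit. With 1 array left out, 0 to 3 passed. The cause was not tested. Differences near 0 changed sign. The dim Ntrk2 probe ILMN_2705460 was at 1e-04 on the authors' normalized table, 0.0012 without background correction, 0.026 with array weights and 0.65 with the replicate block, and the dim Ntrk3 probe ILMN_2632337 was at -0.022 with arrays scaled to a common median. With 1 array left out, the ranges that crossed 0 were -0.0088 to 0.62 for Bdnf ILMN_1214228, -0.067 to 0.024, -0.14 to 0.035 and -0.32 to 0.20 for Ntrk2 ILMN_3138904, ILMN_3061460 and ILMN_2705460, -0.14 to 0.21 for Ntrk3 ILMN_2632337, -0.15 to 0.0046 for Camk2b, -0.065 to 0.27 for Sorcs3 and -0.38 to 0.18 for Nradd. Sizes moved more often than signs. By over 1.5 times, or through 0, 26 of the 46 differences moved when either untreated array was left out, 12 when any DHA array was, 18 on the authors' normalized table and 19 with the replicate block. On the authors' normalized table the second Bdnf probe was at 0.11, Crem at 0.26, Crtc2 at -0.13, Mef2a at -0.10 and Irak1 at -0.068. The lowest values under the 9 other settings were 0.085 for the brightest Sort1 probe, 0.039 for Nptx2 and 0.16 for Vgf. Leaving out an untreated array gave 0.093 to 0.42 for Cbln4, 0.12 to 0.43 for Sorl1, -0.51 to -0.19 for Ppargc1a and -0.25 to -0.066 for Pcsk7. With the replicate block, 0 probes passed (smallest limma adjusted p 0.623). In that fit a DHA array without an untreated array of the same number adds nothing to the difference. The difference then rests on the arrays of replicates 1 and 3 alone. This setting therefore had little power, and its 0 does not show that the main result is robust. The numbers do not pair the arrays by any label. Deviations of same-numbered arrays correlated at 0.0033 and 0.03, and those of differently numbered arrays reached 0.07 in size. With 2 untreated arrays the deviations of 1 mirror those of the other, so these values cannot decide whether the arrays pair.

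The untreated group holds 2 arrays, and a value carried by either cannot be told apart from a difference between diets. The 6 member probes near background, and Ntf3, gave no measure of change.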

Other observations

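Further probes of genes named above, chosen after their values were seen, gave these values. Both tested probes of Map2k2, the kinase that activates the Erk kinases, were below the untreated arrays in all 5 DHA arrays, with differences of -0.24 and -0.54 (limma adjusted p 0.454 and 0.426). A second Sorcs1 probe, not detected in DHA replicate 3, differed by -0.38 beside -0.18 on the brightest, and both Sorcs3 probes differed by 0.10. The 3 tested probes of the stress kinase gene Mapk9 differed by 0.10 to 0.13.

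Within Ntrk2, the dim probe ILMN_2705460 ran opposite to ILMN_3061460 over the 7 arrays (Pearson's r -0.88), a description of 7 arrays and of a probe near background. It was highest in DHA replicate 1, at 6.64, where ILMN_3061460 was lowest, at 8.94, and lowest in DHA replicate 2, at 4.53, where the other was highest, at 9.64.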
